A study of Mus musculus with 12 samples.

Results

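The difference in gene expression between the mouse strains NOD.Idd2 and NOD was compared between 2 spleen cell types, as the strain difference in dendritic cells minus the strain difference in B cells. NOD is an inbred strain that develops autoimmune diabetes, and NOD.Idd2 carries, on that background, the diabetes locus Idd2 from B10 mice. The contrast is between strains, and which strain effects come from the locus was not tested. Poly(A) RNA of isolated splenic B cells and of isolated splenic dendritic cells was sequenced from both strains at 12 weeks of age, without treatment, which gives 4 groups, each of 3 libraries, with NOD as the control strain in both cell types. All 26994 autosomal genes among the 28188 genes of the count table belonged to the comparison, and 16014 of them had enough reads to be tested. Each gene thus has a log2 strain effect (NOD.Idd2 over NOD) in each cell type, and the difference of these log2 values, called the difference below, is positive where dendritic cells showed the higher NOD.Idd2 to NOD ratio.

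B cells recognise antigen through a surface immunoglobulin and become antibody-producing cells, with co-receptors such as CD72 and the Fc receptor FcγRIIB restraining their activation. Dendritic cells take up antigen and present it to T cells, and both cell types present peptides on MHC molecules. A sequence difference between strains can change a gene's RNA in every cell that transcribes it, or in some of them only. The difference of 2 strain effects measures how unequal the effects were between the 2 cell preparations. It does not by itself separate these cases.

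The B cell libraries held 40344883 to 44632276 reads counted on genes and the dendritic cell libraries 8663421 to 30337812, the shallowest being replicate 3 of NOD.Idd2 dendritic cells. The markers fitted the labels: the B cell receptor component Cd79a stood at a mean of 1554 TMM-scaled CPM, the reads of a gene relative to the library's total, in NOD B cells and at 4.14 and 2.64 CPM in NOD and NOD.Idd2 dendritic cells, and the integrin gene Itgax at 2.90 CPM in NOD B cells against 2127 CPM in NOD dendritic cells. The X-inactivation transcript Xist ranged from 1564 to 2088 CPM over the 6 libraries of B cells and had 8 and 7 reads over the NOD and NOD.Idd2 dendritic cell groups, while the Y-linked gene Ddx3y had no read in any B cell library and 239 to 306 CPM in the 6 dendritic cell libraries. This is the pattern of female B cells and male dendritic cells, and in this comparison cell type and sex cannot be told apart. The labels do not say whether replicates were separate animals, and the p-values therefore measure the spread between these libraries only. In both B cell groups replicate 3 stood apart: its deviations from the group mean correlated at -0.58 to -0.70 with those of replicates 1 and 2 of the other strain, and at 0.83 with those of the other replicate 3. Without these 2 libraries 17 genes were called for the difference, 13 of the 17 reported below among them, and the difference then had an adjusted p of 0.191 for Nxpe4, 0.0659 for Tnf and 0.245 for Prdm16. In RNA from a whole cell preparation, fewer cells of a type and less RNA per cell cannot be told apart.

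The strain effect differed between the cell types for 17 of 16014 autosomal genes, a share of 0.106%, of which 10 had a positive and 7 a negative difference (edgeR's quasi-likelihood test, Benjamini-Hochberg adjusted p under 0.05, which is what "passed" means below). Within dendritic cells the strain effect passed for 89 genes (0.556%), and within B cells for 42 (0.262%). B cell libraries of the same replicate number deviated together, and a fit with that number as a block in the B cells called 29 genes for the difference (0.181%), 208 for the dendritic cell strain effect (1.3%) and 77 for the B cell strain effect (0.481%). DESeq2 called 112 genes for the difference (0.699%), limma-voom called 12 (0.0749%), and 1311 genes (8.19%) had an unadjusted p under 0.05. All 17 genes were also called by DESeq2 and with the B cell block, and 10 of them by limma-voom.

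Of the 17 genes, 10 had a strain effect that passed in dendritic cells only, 4 one that passed in B cells only, 1 passed in both with opposite signs and 2 passed in both with the same sign. Most strain effects could not be shown to differ: 110 genes passed in at least 1 cell type, and the difference did not pass for 93 of them. Of the 68 genes that passed in dendritic cells and not in B cells, 10 passed for the difference, and 34 of the 68 had the same sign in B cells. Of the 21 that passed in B cells and not in dendritic cells, 4 did, and 18 of the 21 had the same sign in dendritic cells. A difference of 2 effects is also measured less precisely: over 10727 autosomal genes with at least 5 CPM in a group, the median standard error was 0.11 for the difference, against 0.08 for each strain effect on the log2 scale.

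**Figure D1:**
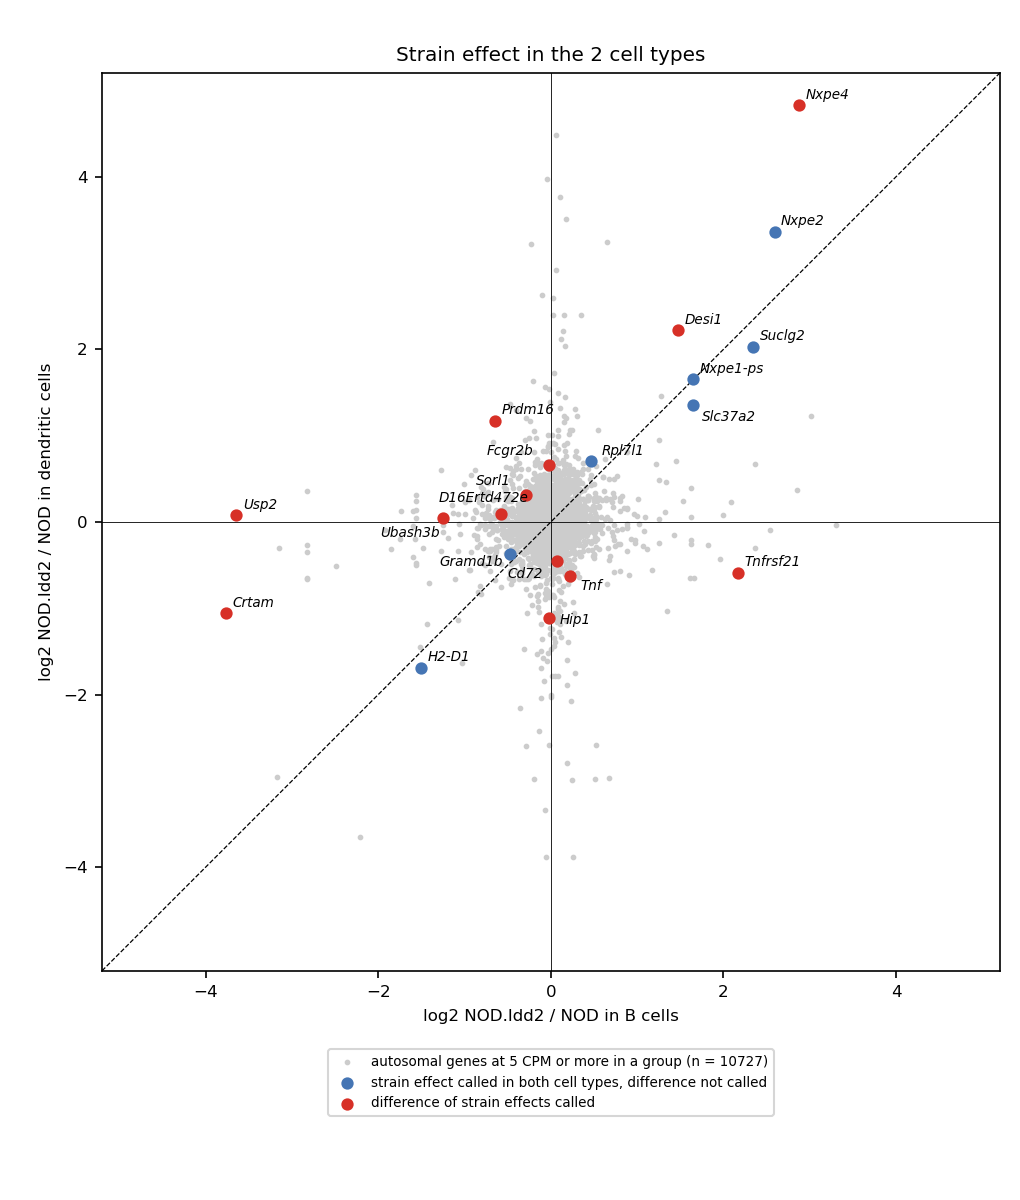
Log2 strain effect (NOD.Idd2 over NOD) in B cells, horizontal axis, against that in dendritic cells, vertical axis, for the 10727 autosomal genes with at least 5 CPM in a group (grey), 13 named genes whose difference passed (red; Usp2 is below that level) and named genes with a strain effect in both cell types whose difference did not pass (blue). Genes on the dashed diagonal had equal effects. Genes beyond the axes, Jhy among them, are not drawn. Tnfrsf21 lies right of zero and below it, and Hip1, Cd72 and Fcgr2b lie near the vertical line, where the B cell effect is near 0.

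Tnfrsf21 encodes death receptor 6, a TNF receptor family member known to restrain lymphocyte activation, and it was the gene with opposite effects that passed in both cell types. It lies on chromosome 17 (chr17:43016555-43089189, GRCm38, plus strand). Its levels were 4.05, 4.74 and 3.91 CPM in NOD B cells and 18.95, 20.1 and 18.2 CPM in NOD.Idd2 B cells. In dendritic cells they were 69.0, 77.9 and 76.6 CPM in NOD and 47.8, 48.5 and 53.0 CPM in NOD.Idd2. The groups did not overlap in either cell type, and the NOD.Idd2 libraries were the high ones in B cells and the low ones in dendritic cells. By the fitted values, which all folds here are, Tnfrsf21 was 4.51-fold higher in NOD.Idd2 B cells (log2 2.17, adjusted p = 4.41e-08 by edgeR) and 1.503-fold lower in NOD.Idd2 dendritic cells (log2 -0.59, adjusted p = 0.00263). The difference was -2.76 on the log2 scale (SE 0.11, 95% interval -3.002 to -2.52, adjusted p = 1.58e-07). Tnfrsf21 was the single member of the 23 tested TNF receptor genes whose difference passed, and the median difference over those 23 was -0.08, against -0.02 over all autosomal genes tested.

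Sorl1, a sorting receptor of the endosome, had effects of opposite sign too. It was at 1223, 1240 and 1315 CPM in NOD B cells and at 1035, 981 and 1076 CPM in NOD.Idd2 B cells. In dendritic cells it was at 435, 414 and 382 CPM in NOD and at 510, 520 and 499 CPM in NOD.Idd2. Neither pair of groups overlapped, and NOD.Idd2 was low in B cells and high in dendritic cells. The difference was 0.60 (SE 0.08, adjusted p = 0.00828 by edgeR), with a dendritic cell effect of 0.31 (adjusted p = 0.0227) and a B cell effect of -0.29 (adjusted p = 0.0574, or 0.0126 with the B cell block). Without replicate 2 of NOD.Idd2 dendritic cells the difference of Sorl1 had an adjusted p of 0.0703.

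**Figure D2:**
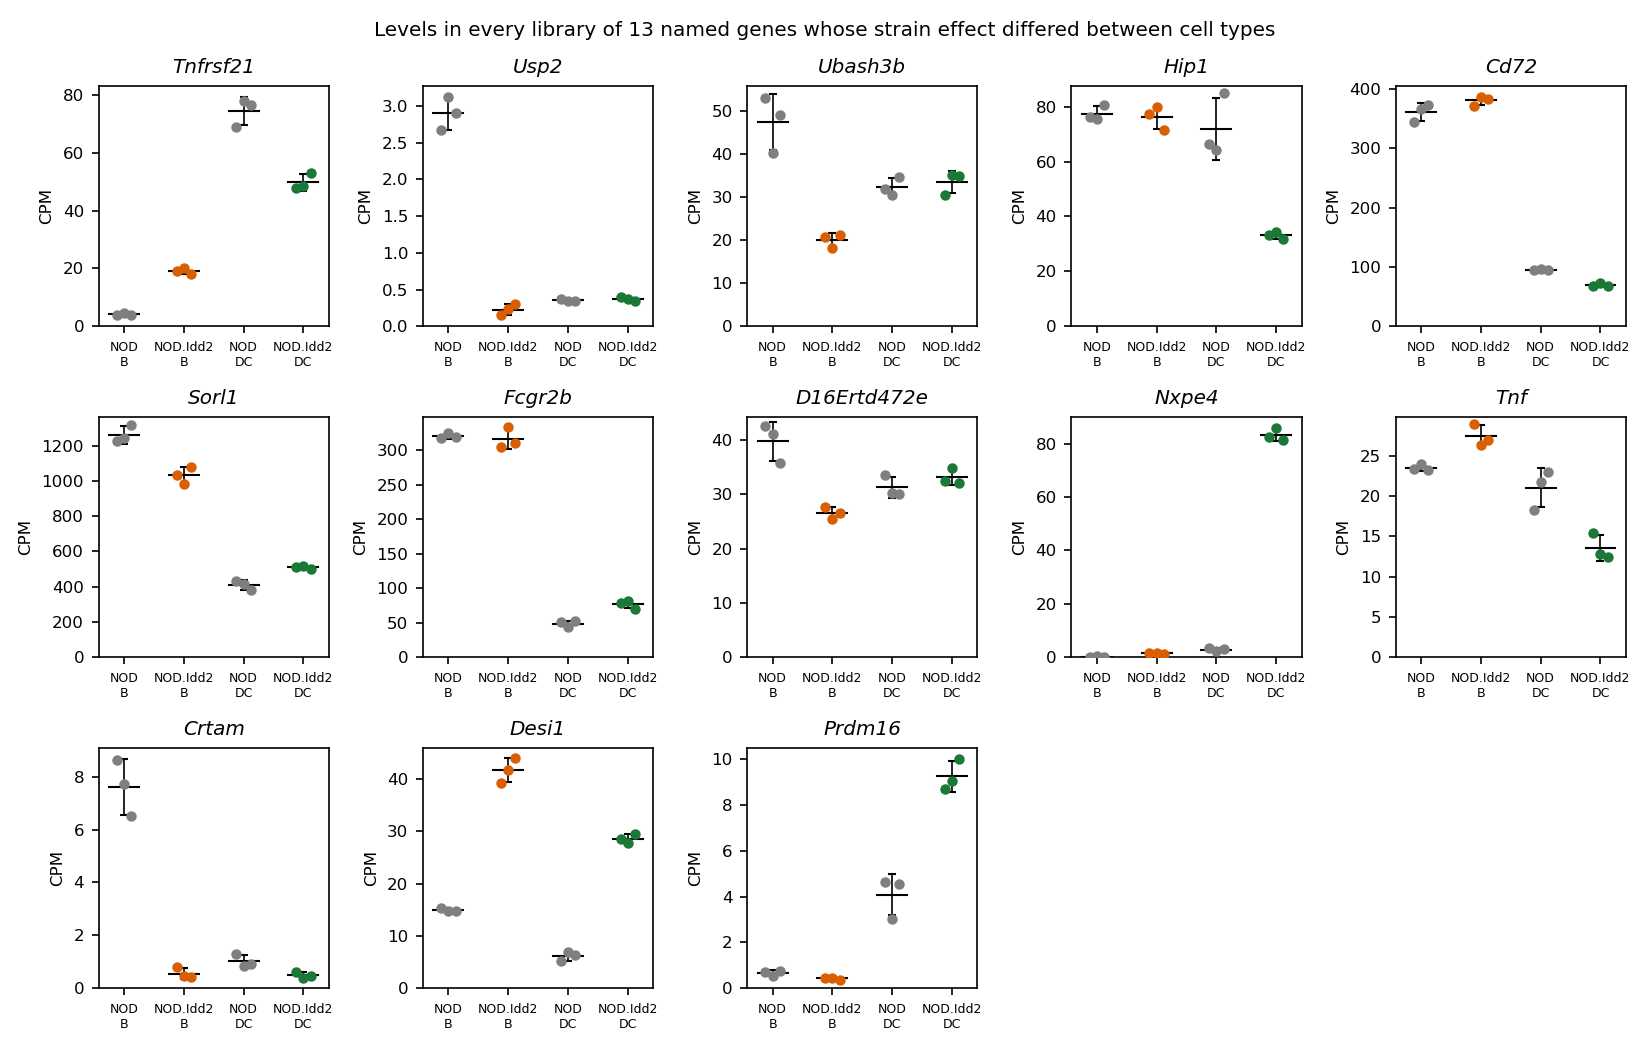
CPM, on linear vertical axes that start at 0, of 13 named genes whose difference passed, for the 4 groups on the horizontal axis. Each point is a library, with the mean (bar) and SD of 3 libraries. The 2 left groups of each panel are B cells and the 2 right groups dendritic cells. For Tnfrsf21 the NOD.Idd2 points are above NOD at left and below it at right.

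In B cells alone, 4 named genes had a strain effect that passed and that differed from the one in dendritic cells, and all 4 were lower in NOD.Idd2 B cells. Ubash3b encodes STS-1, a phosphatase that dampens signalling from antigen receptors (chr9:41011098-41161697, minus strand). It was at 53.1, 40.4 and 49.2 CPM in NOD B cells and at 20.7, 18.1 and 21.2 CPM in NOD.Idd2 B cells. The 6 dendritic cell libraries ran from 30.5 to 35.2 CPM, and there the strains overlapped. Ubash3b was 2.38-fold lower in NOD.Idd2 B cells (adjusted p = 4.31e-05 by edgeR), its dendritic cell effect was 0.05 on the log2 scale (adjusted p = 0.96), and the difference was 1.30 (SE 0.15, 95% interval 0.98 to 1.61, adjusted p = 0.00375). The dendritic cell level of Ubash3b lay between those of the B cell groups. Ubash3b is among the 23 tested genes of the B cell receptor signalling list, whose median difference was -0.10.

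Usp2, a deubiquitinating enzyme, had the numerically largest difference among the named genes that passed, but few reads, and was named after its values were seen because it was under 5 CPM in every group. It stood at 2.67, 3.12 and 2.91 CPM in NOD B cells and at 0.148, 0.236 and 0.299 CPM in NOD.Idd2 B cells, which rest on 374 and 29 reads over each group. Dendritic cells had 0.341 to 0.399 CPM in all 6 libraries, with 27 and 23 reads. NOD B cells were thus the high group, and the other 3 groups were all under 0.4 CPM. The difference was 3.72 (SE 0.39, adjusted p = 0.00305 by edgeR), and the dendritic cell effect was 0.08 (adjusted p = 0.998). The annotation places a protein-coding and an antisense gene on the opposite strand over Usp2, and whether reads were counted by strand is not known. Other named genes, Cd72 and Ubash3b among them, also overlap annotated genes.

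Crtam, an adhesion molecule of activated T and NK cells, lies beside Ubash3b (chr9:40969691-41004628). It was at 8.61, 7.71 and 6.52 CPM in NOD B cells and at 0.813, 0.449 and 0.414 CPM in NOD.Idd2 B cells, 13.6-fold lower. In dendritic cells it was at 1.31, 0.848 and 0.925 CPM in NOD and at 0.621, 0.400 and 0.455 CPM in NOD.Idd2. Crtam was low in NOD.Idd2 in both cell types without overlap, but the dendritic cell effect of -1.05 did not pass (adjusted p = 0.257 by edgeR), and the difference was 2.71 (SE 0.43, adjusted p = 0.0398). The difference of Crtam passed in 2 of 12 fits that each left out a library (without NOD.Idd2 B cell replicate 1 and without NOD dendritic cell replicate 1), with an adjusted p of 0.0572 to 0.236 without any other single library. D16Ertd472e, a gene of chromosome 16, was 1.495-fold lower in NOD.Idd2 B cells (42.5, 41.1 and 35.7 against 27.7, 25.5 and 26.5 CPM), and in dendritic cells the strains overlapped, at 30.0 to 34.8 CPM. Its difference was 0.67 (SE 0.10, adjusted p = 0.0388), and it passed without NOD B cell replicate 3 and without NOD dendritic cell replicate 1, but had an adjusted p of 0.0632 to 0.121 without any other single library.

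In dendritic cells alone, 10 of the 17 genes had a strain effect that passed. They include Sorl1 and 2 antigen receptor segments, which are counted and not named. The smallest adjusted p for the difference among the 10 was that of 3830406C13Rik, a provisional symbol on chromosome 14, singled out after its values were seen. It was at 5.33, 4.62 and 4.28 CPM in NOD dendritic cells and at 35.0, 35.9 and 37.4 CPM in NOD.Idd2 dendritic cells. All 6 libraries of B cells ran from 25.3 to 34.4 CPM and the strains overlapped there, so that NOD dendritic cells were the single low group. The difference of 3830406C13Rik was 2.87 (SE 0.16, adjusted p = 3.10e-06 by edgeR).

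Hip1, which encodes a clathrin-binding protein of endocytosis, was lower in NOD.Idd2 dendritic cells only. It was at 66.3, 64.4 and 84.9 CPM in NOD dendritic cells and at 33.2, 34.3 and 31.8 CPM in NOD.Idd2 dendritic cells. In B cells it was at 76.4, 75.4 and 80.5 CPM in NOD and at 77.2, 79.8 and 71.6 CPM in NOD.Idd2. The strains overlapped in B cells and stood apart in dendritic cells, where NOD.Idd2 was 2.16-fold lower (adjusted p = 7.88e-05 by edgeR). The difference was -1.09 (SE 0.13, 95% interval -1.37 to -0.81, adjusted p = 0.00511).

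Hip1 lies at chr5:135406531-135545120, and 3 of the 37 tested genes that start within 1 Mb of it also had a dendritic cell strain effect that passed. Over all autosomal genes tested, 89 of 16014 (0.556%) did. The 3 genes follow Hip1 within 372 kb and were chosen after their values were seen. Rhbdd2, a rhomboid domain protein, had a dendritic cell effect of -0.60 (adjusted p = 0.00665) and a B cell effect of 0.02. Por, the electron donor of microsomal cytochrome P450 enzymes, had a dendritic cell effect of -0.45 (adjusted p = 0.00422) and one of -0.00 in B cells. Mdh2, the mitochondrial malate dehydrogenase of the citric acid cycle, had a dendritic cell effect of -0.43 (adjusted p = 0.0133) and a B cell effect of 0.00. In all 3 genes, chosen because their dendritic cell effect passed, the dendritic cell groups did not overlap and the B cell groups did. Their differences did not pass, with adjusted p of 0.102 for Rhbdd2 (0.0388 with the B cell block), 0.0998 for Por and 0.156 for Mdh2.

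Cd72, an inhibitory co-receptor of B cells, was at 94.8, 96.2 and 94.6 CPM in NOD dendritic cells and at 68.0, 72.7 and 67.3 CPM in NOD.Idd2 dendritic cells. In B cells it was at 344, 367 and 373 CPM in NOD and at 372, 387 and 383 CPM in NOD.Idd2. The dendritic cell groups stood apart with NOD.Idd2 low, and the B cell groups overlapped. The difference of Cd72 was -0.53 (SE 0.06, adjusted p = 0.00574 by edgeR), with a dendritic cell effect of -0.46 (adjusted p = 0.000395) and a B cell effect of 0.08 (adjusted p = 0.929). The other 17 B cell identity markers summed to 853 to 897 CPM in NOD dendritic cells and 806 to 858 CPM in NOD.Idd2 dendritic cells, which overlap. Of these 17 markers 12 had a dendritic cell effect below 0, against 8732 of the 16014 autosomal genes, and none was at 0 in any group. Cd79a, 1 of the 17, was at 4.14 and 2.64 CPM in NOD and NOD.Idd2 dendritic cells, with a difference of -0.93 (adjusted p = 0.657 by edgeR). The markers were not uniform: of all 18, Cd72 included, 15 had a difference below 0 and 3 above it, with a median of -0.14. Fcer2a, for 1, had a difference of 0.62 (adjusted p = 0.644 by edgeR). The part of B cell RNA in the result was not tested.

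Fcgr2b encodes FcγRIIB, the inhibitory receptor for IgG. It was at 50.7, 44.1 and 52.0 CPM in NOD dendritic cells and at 78.5, 81.7 and 70.4 CPM in NOD.Idd2 dendritic cells. B cells held more of it, at 305 to 333 CPM in all 6 libraries, with the strains overlapping. The difference of Fcgr2b was 0.67 (SE 0.10, adjusted p = 0.0232 by edgeR), and it was 1.58-fold higher in NOD.Idd2 dendritic cells (adjusted p = 0.000619). It had an adjusted p of 0.0592 to 0.105 without replicate 1 or 2 of NOD B cells, replicate 1 of NOD.Idd2 B cells, or replicate 1 or 2 of NOD.Idd2 dendritic cells. Fcgr2b was the single member of the 16 tested Fc receptor genes whose difference passed, and their median difference was 0.13.

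Tnf, the inflammatory cytokine, was at 18.3, 21.8 and 23.01 CPM in NOD dendritic cells and at 15.5, 12.8 and 12.5 CPM in NOD.Idd2 dendritic cells. In B cells it was at 23.3, 23.96 and 23.3 CPM in NOD and at 29.0, 26.3 and 27.0 CPM in NOD.Idd2. The groups did not overlap in either cell type, and NOD.Idd2 was low in dendritic cells and high in B cells. The difference was -0.84 (SE 0.13, adjusted p = 0.0398 by edgeR), with a dendritic cell effect of -0.62 (adjusted p = 0.0153) and a B cell effect of 0.22 (adjusted p = 0.765). Tnf lies at chr17:35199381-35202007, and it passed without NOD dendritic cell replicate 1 and without NOD.Idd2 dendritic cell replicate 1, but had an adjusted p of 0.062 to 0.149 without any other single library.

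Prdm16, a transcription factor best known from brown fat, was at 4.63, 3.05 and 4.55 CPM in NOD dendritic cells and at 8.70, 9.03 and 10 CPM in NOD.Idd2 dendritic cells. All 6 B cell libraries were under 0.8 CPM, with 87 reads over the NOD and 54 over the NOD.Idd2 group. The dendritic cell effect was 1.18 (adjusted p = 0.0133 by edgeR), and the B cell effect of -0.65 did not pass (adjusted p = 0.668). The difference was 1.82 (SE 0.29, adjusted p = 0.0398 by edgeR), it passed without NOD dendritic cell replicate 1, and it had an adjusted p of 0.0523 to 0.153 without any other single library. The annotation places a protein-coding and 2 antisense genes on the opposite strand within Prdm16, and no source used here says whether reads were counted by strand.

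**Figure D3:**
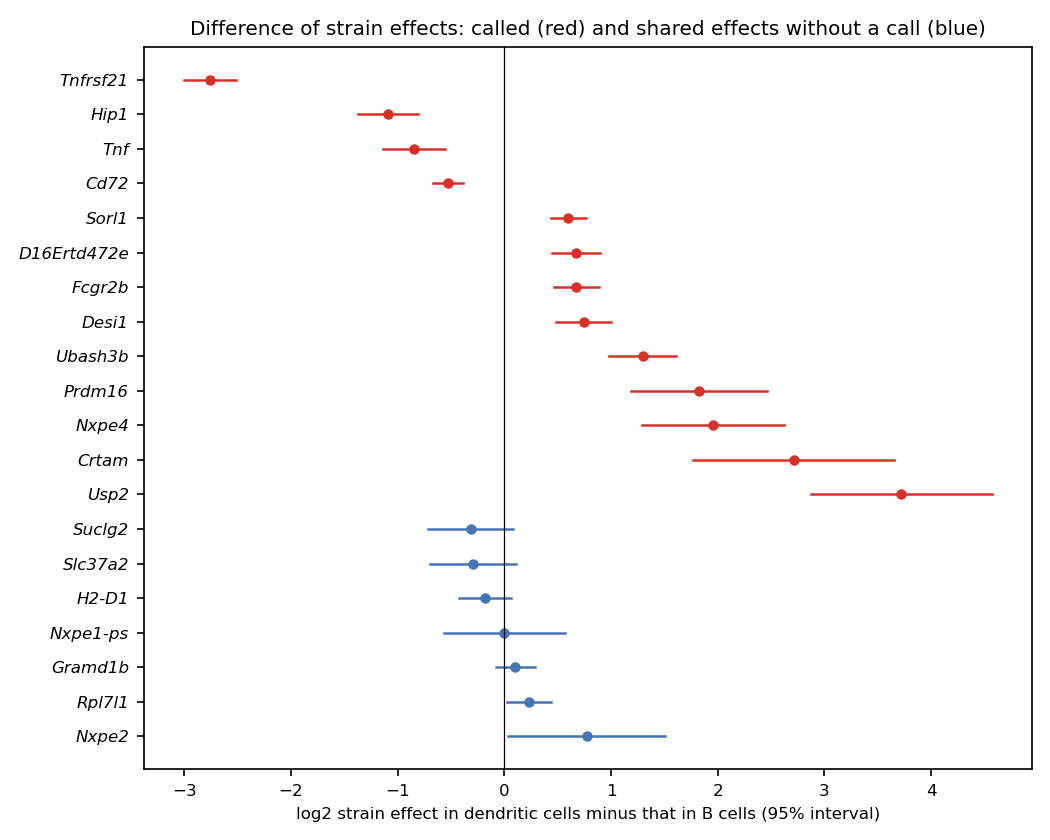
Difference of the log2 strain effects (dendritic cells minus B cells, horizontal axis) with its 95% interval for 13 named genes that passed (red) and for 7 named genes with a strain effect in both cell types whose difference did not pass (blue). Tnfrsf21 is at -2.76 and Usp2 at 3.72, and the blue interval of Nxpe1-ps is centred on 0.00, where its width is not reliable.

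Genes that moved the same way in both cell types, but by different amounts, were Nxpe4 and Desi1. Nxpe4, a neurexophilin and PC-esterase domain gene of chromosome 9 (chr9:48162023-48400025), was at 3.32, 2.47 and 2.97 CPM in NOD dendritic cells and at 82.6, 85.7 and 81.3 CPM in NOD.Idd2 dendritic cells, 28.5-fold higher. In B cells it was at 0.134, 0.314 and 0.210 CPM in NOD and at 1.77, 1.66 and 1.43 CPM in NOD.Idd2, 7.34-fold higher. NOD.Idd2 was high in both cell types without overlap, and the difference was 1.96 (SE 0.30, adjusted p = 0.0388 by edgeR). Nxpe4 overlaps Nxpe2 on the opposite strand, and Nxpe2 was the more abundant of the pair in B cells, at 12.4 to 15.04 CPM in NOD and 76.7 to 84.5 CPM in NOD.Idd2, so that without strand in the counting their reads cannot be told apart. The difference of Nxpe4 passed without NOD B cell replicate 1 and without NOD dendritic cell replicate 1 or 2, and had an adjusted p of 0.0548 to 0.168 without any other single library.

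Desi1 encodes a peptidase that removes SUMO from proteins (chr15:81992523-82033862). It was at 5.17, 6.86 and 6.32 CPM in NOD dendritic cells and at 28.5, 27.8 and 29.6 CPM in NOD.Idd2 dendritic cells. In B cells it was at 15.4, 14.8 and 14.8 CPM in NOD and at 39.3, 41.8 and 43.9 CPM in NOD.Idd2. NOD.Idd2 was high in both, by 4.66-fold in dendritic cells and 2.78-fold in B cells, and the difference was 0.74 (SE 0.12, adjusted p = 0.0398 by edgeR). It passed without NOD dendritic cell replicate 1 or 2, and had an adjusted p of 0.0542 to 0.156 without any other single library. Xrcc6, a DNA repair gene that overlaps Desi1 on the opposite strand, had a difference of 0.10 (adjusted p = 0.824).

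Other strain effects passed in both cell types with a difference that did not: 18 genes in all, of which the 8 with the strongest evidence in both cell types were named. H2-D1, an MHC class I heavy chain, was lower in NOD.Idd2 in both, by 3.22-fold in dendritic cells and 2.84-fold in B cells, with a difference of -0.18 (95% interval -0.42 to 0.06). Nxpe1-ps was 3.15-fold higher in dendritic cells and 3.14-fold higher in B cells, with a difference of 0.00. Its 95% interval as computed, -0.57 to 0.57, is not reliable. The SE behind it, 0.26, was derived from the difference and its test statistic, which is unstable for a difference near 0. The SE was 0.08 for the dendritic cell effect of Nxpe1-ps and 0.09 for its B cell effect. Suclg2, a subunit of succinyl-CoA ligase of the citric acid cycle, was 4.09-fold and 5.09-fold higher, with a difference of -0.32 (95% interval -0.71 to 0.08). The other intervals show how much inequality remains possible. For Gramd1b, a sterol transport protein lower in both, the interval ran from -0.08 to 0.28. For Nxpe2 it ran from 0.03 to 1.51 and for Rpl7l1, a ribosomal protein-like gene, from 0.03 to 0.44. Slc37a2, a sugar-phosphate transporter, had an interval of -0.69 to 0.11. Jhy fell from 9960 reads over the NOD B cell group to 1 in NOD.Idd2 and from 134 to 0 in dendritic cells, too few in NOD.Idd2 for a difference to be measured by edgeR, although limma-voom gave it an adjusted p of 0.0191.

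By position, chromosome 9 held 5 of the called genes among its 953 tested genes (0.525%), namely Usp2, Ubash3b, Sorl1, Nxpe4 and Crtam, and the other autosomes 12 among 15061 (0.0797%). For the strain effects themselves, 16 of the 953 genes of chromosome 9 passed in dendritic cells and 15 in B cells. Over all 16014 autosomal genes tested these were 89 (0.556%) and 42 (0.262%). Of the chromosome 9 genes, 8 were shared ones whose difference did not pass. Crtam, Ubash3b and Sorl1 lie within the stretch that starts at 40969691 and ends at 42124297. Chromosome 17 held 2 called genes among 809 (0.247%), Tnfrsf21 and Tnf. Strain effects were common there too: 12 of the 809 passed in dendritic cells, 10 in B cells, and 4 were shared without a difference that passed. On chromosome 3, 10 of 874 passed in dendritic cells and 5 in B cells. Position was not tested.

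**Figure D4:**
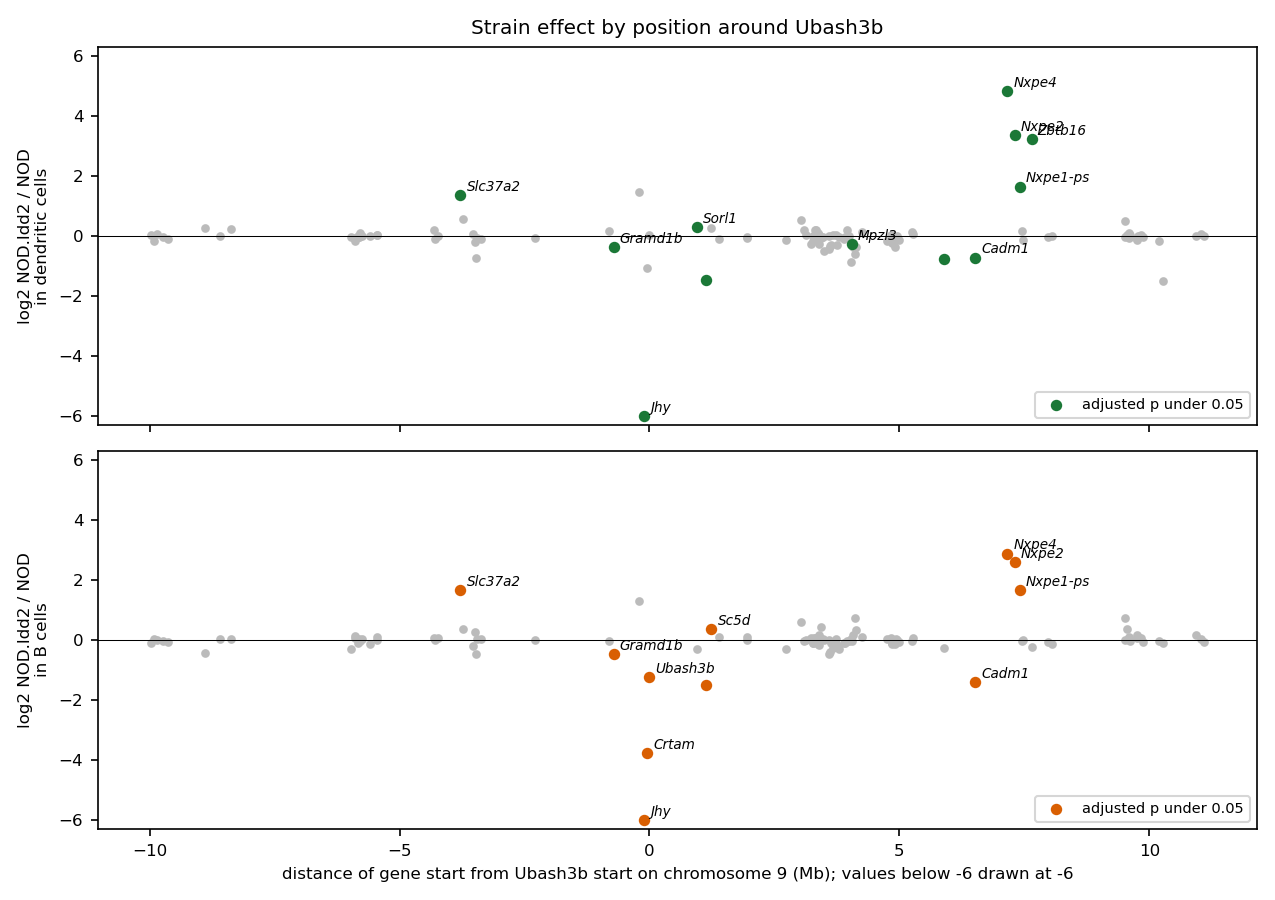
Log2 strain effect of 119 chromosome 9 genes with at least 5 CPM in a group in dendritic cells (top) and B cells (bottom) against the distance of each gene's start from that of Ubash3b in Mb. Coloured points passed in that cell type (12 in dendritic cells, 11 in B cells). Ubash3b at 0 is coloured in the lower panel only, and values below -6 are drawn at -6.

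Interferon-stimulated genes as a list mostly had negative differences, without a gene of it passing for the difference. These genes are switched on by type I interferon through the factor ISGF3, which binds the interferon-stimulated response element in their promoters. All 35 genes of the list were tested, and 34 had a difference below 0, against 8673 of the 16014 autosomal genes (54.2%). The median difference was -0.40, against -0.02 over all autosomal genes tested. The median strain effect of the list was -0.25 in dendritic cells and 0.22 in B cells. Of the 35 members, 26 were above 0 in B cells and below 0 in dendritic cells, against 4690 of the 16014 autosomal genes. Summed, the list stood at 1323 to 1465 CPM in NOD B cells and at 1396 to 1528 CPM in NOD.Idd2 B cells, which overlap. In dendritic cells the sums were 2105 to 2222 CPM in NOD and 1737 to 1966 CPM in NOD.Idd2, without overlap. The lack of overlap is not particular to this list. Over all autosomal genes tested the dendritic cell sums were 958600 to 980500 CPM in NOD and 931100 to 956900 CPM in NOD.Idd2, also without overlap. Among the other lists some overlapped there and some did not. Members of a list are not replicates. None of the 35 passed for the difference by edgeR or limma-voom, 21 had an unadjusted p under 0.05, 1 passed with the B cell block and 9 by DESeq2. Of the strain effects themselves, Zbp1 fell in dendritic cells (adjusted p = 0.0335) and Ifi27l2a rose in B cells (adjusted p = 0.00586), and no other member passed by edgeR in either cell type.

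The promoters of 4 members are shown because they carry the core of the interferon response element: GAAA, any 2 bases, GAAA, searched on both strands. The sequences are 80 bases from within the 250 before each start, from RefSeq on GRCm38.p6, printed 5′ to 3′ on the gene's strand with the core in capitals (TTTC, 2 bases, TTTC where it is on the other strand, and a longer run where cores overlap). They lie at chr19:34640769-34640848 (plus), chr4:156200840-156200919 (minus), chr5:120777690-120777769 (minus) and chr12:26456528-26456607 (minus).
Ifit1: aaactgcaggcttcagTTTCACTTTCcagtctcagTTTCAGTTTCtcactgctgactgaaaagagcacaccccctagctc
Isg15: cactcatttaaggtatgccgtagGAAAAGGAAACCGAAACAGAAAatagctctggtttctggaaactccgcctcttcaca
Oas3: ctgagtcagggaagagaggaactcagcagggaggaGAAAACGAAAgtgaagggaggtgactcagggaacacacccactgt
Rsad2: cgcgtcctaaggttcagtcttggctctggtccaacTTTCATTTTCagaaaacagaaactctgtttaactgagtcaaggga

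The core was found in the window from 250 bases before to 50 bases after the start for 14 of the 25 list members that had a RefSeq window (56%), against 1079 of 27025 genes (3.99%), and for 0 of the 12 called genes with a window. The median difference was -0.55 over the 14 members with the core, -0.34 over the 11 without it and -0.41 over the 10 without a window. A match describes letters in a window and says nothing of binding.

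Ifit1, an interferon-induced RNA-binding protein, carries the core more than once in the stretch shown, and was at 2.47, 3.99 and 2.98 CPM in NOD B cells and at 5.35, 5.56 and 4.85 CPM in NOD.Idd2 B cells. In dendritic cells it was at 15.99, 14.7 and 15.5 CPM in NOD and at 11.6, 13.4 and 13.3 CPM in NOD.Idd2. The groups did not overlap in either cell type, and NOD.Idd2 was high in B cells and low in dendritic cells. The difference was -1.02 (SE 0.20, adjusted p = 0.128 by edgeR, or 0.0296 with the B cell block).

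Zbp1, a sensor of Z-form nucleic acids, was at 31.0, 35.6 and 27.5 CPM in NOD dendritic cells and at 21.5, 22.8 and 20.8 CPM in NOD.Idd2 dendritic cells. Its B cell groups overlapped, at 27.4 to 33.5 CPM in NOD and 33.3 to 35.1 CPM in NOD.Idd2, and its difference was -0.65 (SE 0.14, adjusted p = 0.139 by edgeR). Oasl2, an oligoadenylate synthetase-like protein, was at 50.4, 43.5 and 33.0 CPM in NOD dendritic cells and at 26.4, 29.0 and 23.4 CPM in NOD.Idd2 dendritic cells, with a difference of -0.89 (SE 0.20, adjusted p = 0.163). In dendritic cells Ifi27l2a differed in sign from most of the list: it was at 23.1, 22.1 and 19.2 CPM in NOD B cells and at 36.8, 33.1 and 32.8 CPM in NOD.Idd2 B cells, and in dendritic cells it was also high in NOD.Idd2, at 14.4 to 18.1 against 10.7 to 11.8 CPM. Its difference was -0.17 (adjusted p = 0.799).

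**Figure D5:**
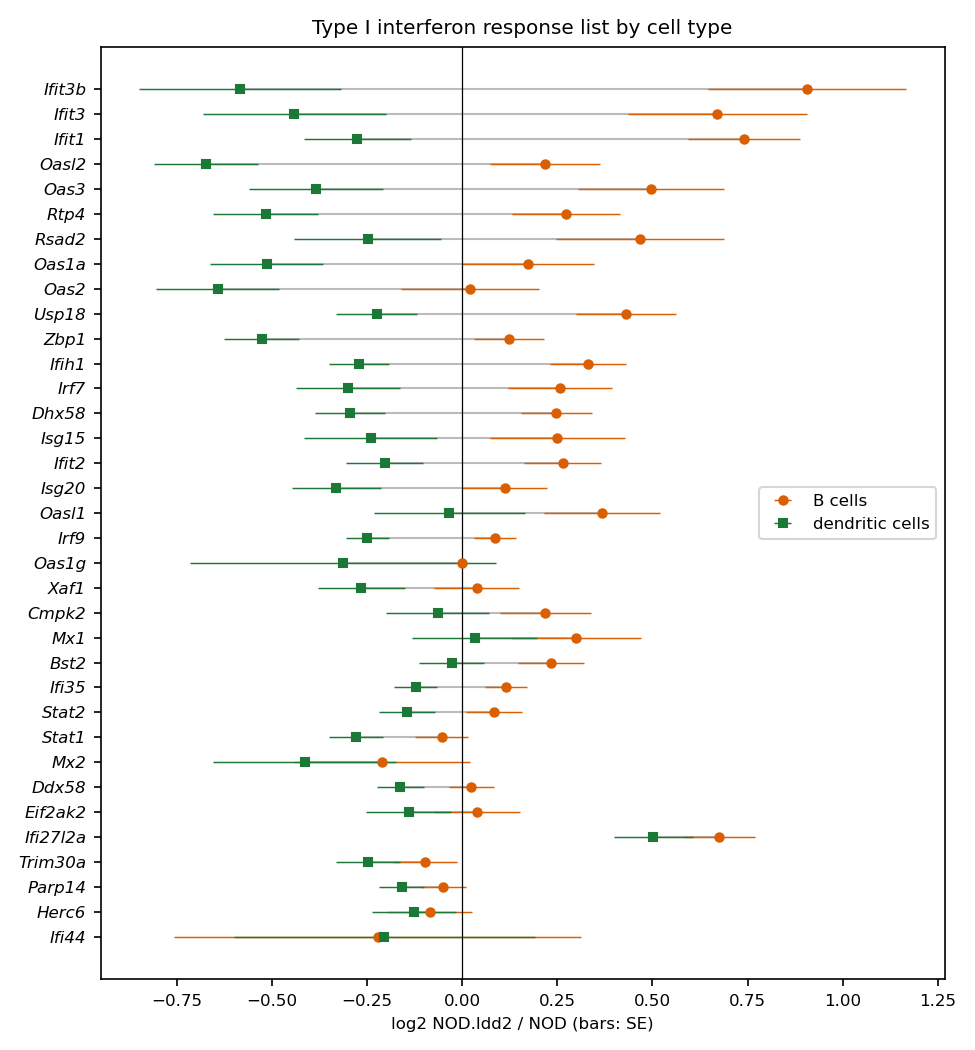
Log2 strain effect (NOD.Idd2 over NOD, horizontal axis; bars are SE) of the 35 genes of the type I interferon list in B cells (circles) and dendritic cells (squares), joined by a grey line for each gene and ordered by the difference. The square lies left of the circle for 34 genes, and 26 genes have the circle right of 0 and the square left of it.

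Other gene groups were compared in the same way. Of 39 lists, 6 held a gene whose difference passed. Over the 588 distinct members tested 7 passed by edgeR, 9 with the B cell block, 23 by DESeq2 and 5 by limma-voom. The shares over all autosomal genes tested were 0.106%, 0.181%, 0.699% and 0.0749%. An unadjusted p under 0.05 was found for 105 members (17.9%), against 8.19% of all autosomal genes tested. The lists were chosen with earlier results of these data known, and whether they held more calls than other genes was not tested. The interferon-induced GTPases, which attack the vacuoles of intracellular pathogens, had 14 of 16 differences below 0 and a median of -0.16, 2 had an unadjusted p under 0.05, and none passed by edgeR, DESeq2 or limma-voom. The median strain effect of these GTPases was -0.20 in dendritic cells and 0.01 in B cells. Cell cycle genes had a median difference of 0.06 over 30 members and cholesterol synthesis genes one of -0.09 over 21. The SUMO pathway list held Desi1 as its single call among 20 genes, with a median of 0.04.

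Several marker lists of other cell types had differences of the opposite sign to the interferon list. All 11 tested neutrophil markers had a difference above 0 (median 1.45), as did 10 of 12 monocyte markers (median 0.78) and 11 of 12 NK cell markers (median 0.70), while 9 of 14 macrophage markers (median 0.14) and 6 of 14 markers of type 2 dendritic cells (median -0.01) did. None of the 35 neutrophil, monocyte and NK cell differences passed by edgeR or limma-voom, 5, 6 and 3 had an unadjusted p under 0.05, and DESeq2 called 1, the monocyte marker Ace. The summed neutrophil markers stood at 12.3 to 37.4 CPM in NOD B cells and 10.9 to 15.2 CPM in NOD.Idd2 B cells, and at 81.9 to 94.4 and 64.3 to 82.3 CPM in NOD and NOD.Idd2 dendritic cells. The summed NK cell markers stood at 36.3 to 48.4 and 25.02 to 40.8 CPM in NOD and NOD.Idd2 B cells, and at 333 to 385 and 344 to 362 CPM in dendritic cells. In B cells these sums overlapped between the strains, none of the markers was at 0 in every library of a group, and the part of such cells in the differences reported here was not tested.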

How the data were processed

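Counts were taken from the raw table, which the authors deposited as whole-number counts of reads per gene symbol. The submitters' processing notes name STAR 0.12.2 and GRCm38; the sources used here name no counting tool or strand setting. The deposited normalized table was not used across cell types. Symbols were placed with GENCODE vM21 (27734) or RefSeq (377). Genes passing edgeR's expression filter (count 10, total 15) were TMM-scaled and fitted over all 12 libraries with edgeR 4.0.16 (R 4.3.3), adjusting over 16588 genes. CPM are TMM-scaled, and folds are the fitted log2 effects taken off the log scale. Alternatives were other filters and scalings, DESeq2 1.42.0, limma-voom (limma 3.58.1), a 1.5-fold minimum, left-out libraries and replicate blocks. Same-numbered B cell libraries, by title, deviated together (correlation 0.63, 0.50 and 0.83 over 11105 genes, against 0.44 and 0.49 between numbers 1 and 2 and -0.58 to -0.70 between 3 and the others), and dendritic cell libraries less so (-0.00, 0.13 and 0.13). No 2 libraries agreed within sampling noise. The fit was tested on simulated counts.

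Named genes passed and had 5 CPM or more in a group: the 10 largest differences of each sign, 5 more by p, opposite effects, up to 4 per list, and 8 shared effects. Provisional symbols and receptor segments were counted only, and 1 called gene is not reported here. The comparison, lists and rules were chosen with earlier results of these data known. The promoter motif was chosen after the interferon values were seen; 2 other motifs and a depth-thinned fit were also tried and are not reported.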

Additional observations from a re-analysis of the deposited data

Results flagged for a closer look

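Each gene below showed a strain effect that differed between dendritic cells and B cells by edgeR's test of the difference itself. The log2 differences (dendritic cells minus B cells) were -2.76 for Tnfrsf21, 3.72 for Usp2, 1.30 for Ubash3b, -1.09 for Hip1 and -0.53 for Cd72, which passed in all 12 fits that left out a library. They were 0.60 for Sorl1, 0.67 for Fcgr2b, 0.67 for D16Ertd472e, 1.96 for Nxpe4, -0.84 for Tnf, 2.71 for Crtam, 0.74 for Desi1 and 1.82 for Prdm16, each of which was lost in at least 1 such fit.

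Outside the autosomes, the X-linked gene Mid1, a microtubule-associated ubiquitin ligase, had a difference of -1.62 (adjusted p = 0.0309 by edgeR). It was at 12.5, 13.1 and 10.5 CPM in NOD dendritic cells and at 5.19, 4.66 and 5.23 CPM in NOD.Idd2 dendritic cells, and its B cell groups overlapped at 2.86 to 5.25 CPM. For this gene, too, cell type and sex cannot be told apart.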

How the results depend on the processing

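Counts of called genes moved with the fit, and the difference of each named gene that passed kept its sign under the alternatives run. Among named genes that did not pass, Nxpe1-ps ran from -0.06 to 0.09. The count for the difference, 17, became 32 without a filter on low counts, 11 among genes at 1 CPM or more in both cell types, 112 with DESeq2, 4 against a 1.5-fold minimum and 29 with the B cell block, and leaving out a library gave 7 to 19 (9 without NOD B cell replicate 1, 11 without NOD.Idd2 B cell replicate 1 or 2, and 9, 7 and 10 without NOD.Idd2 dendritic cell replicates 1, 2 and 3). For the dendritic cell strain effect, 89 became 58, 266, 16 and 208 under the both-cell-type filter, DESeq2, the 1.5-fold minimum and the B cell block, 137 with limma-voom, 201 without both replicate 3 B cell libraries and 177 with the dendritic cell libraries alone, and 33 to 116 when leaving out a library (59 and 38 without NOD dendritic cell replicates 1 and 2, and 33 without any 1 of NOD.Idd2). For the B cell strain effect, 42 became 87 with DESeq2, 25 against the 1.5-fold minimum, 77 with the B cell block and 24 with the B cell libraries alone, and 34 to 46 when leaving out a library. The cause of these shifts was not tested. The B cell block and the fit without both replicate 3 B cell libraries were added after seeing the data.

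Same-numbered libraries deviated together in the B cells, mainly those of replicate 3, and less so in the dendritic cells. A replicate block over both cell types called 53 genes for the difference (19 positive and 34 negative, 35.8% positive against 58.8%), 320 in dendritic cells and 74 in B cells. Under it Nxpe4 had an adjusted p of 0.0541, and 6 interferon genes passed (Dhx58, Ifit1, Ifit3, Irf9, Oasl2 and Zbp1), as did Rhbdd2, Por and Mdh2. DESeq2 split its calls 54 to 58. The median difference of the interferon list ran from -0.47 to -0.32 over the alternatives, with 33 to 35 members below 0. Usp2 rests on 23 to 374 reads over a group, and the part of depth in the counts was not tested.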

Other observations

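With the replicate number as a block in the B cells, 12 further genes passed for the difference, 4 with a positive and 8 with a negative value, and those given here were chosen after their values were seen. Zfp318, a zinc finger protein needed for surface IgD on mature B cells, had the smallest adjusted p (0.00268 by edgeR, against 0.102 without the block), with a log2 strain effect of 0.63 in B cells and 0.04 in dendritic cells. Lyz2, the lysozyme of myeloid cells, had a strain effect of 0.49 in dendritic cells and -0.46 in B cells (adjusted p of the difference 0.0347). Pigr, the polymeric immunoglobulin receptor, had one of 1.48 in dendritic cells and 0.09 in B cells (adjusted p 0.0388). Noct, a circadian phosphatase of dinucleotide cofactors, had one of 0.62 in dendritic cells and -0.42 in B cells (adjusted p 0.0296).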
